A study of Mus musculus with 18 samples.

Results

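The mitochondrial ribosomal protein genes were taken as the probe sets that name 1 gene with a symbol beginning Mrpl or Mrps followed by a number. Of the 19938 genes named in this way on the array, 77 met the rule, 48 with Mrpl symbols, called large subunit genes here, and 29 with Mrps symbols, called small subunit genes. For each gene the value used was that of the probe set whose average over the 18 arrays was highest, a choice needed for 8 genes with more than 1 probe set. Mrpl53 was named only together with another gene and was not analysed here.

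Floating adipocytes were prepared from bone marrow (BM) and from epididymal fat (EPI) of male C57BL/6J mice on standard chow at 6, 14 and 18 months of age. BM cells were flushed from femurs and tibias, freed of red cells by lysis and collected as the floating layer. EPI cells were released with collagenase and collected by flotation. No group carried a transgene, a deletion or a drug treatment. Each of the 6 groups had 3 arrays of pooled RNA from the 6 to 10 animals of that group, so p-values here measure the spread between pools and not between animals. Both cell types of an age came from the same mice, but which pools share animals is not given in the sources used here, and BM and EPI were fitted as separate groups. The number of arrays limits the precision. The values are log2 signals of Affymetrix Mouse Gene 1.0 ST arrays, and a level is never compared between probe sets.

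Mitochondria hold their own ribosomes, which translate the few proteins encoded by mitochondrial DNA, all of them subunits of the oxidative phosphorylation complexes. The protein parts of these ribosomes are encoded in the nucleus, made in the cytosol and imported. The small subunit decodes the messenger RNA and the large subunit forms the peptide bond. In adipocytes the respiratory chain built in this way supports lipid synthesis and fatty acid oxidation.

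The labelled cell types were set against marker genes before the members were read. All 15 adipocyte markers measured were lower in BM, with a median log2 difference of -4.68 and a summed linear signal of 3871 to 4811 on BM arrays against 75604.5 to 103423 on EPI arrays. Plin1, the coat protein of the fat droplet, averaged 6.07, 5.75 and 5.77 in BM at 6, 14 and 18 months against 12.62, 12.20 and 12.69 in EPI. Markers of neutrophils (16 of 16), erythroid cells (10 of 10) and proliferation (28 of 28) were all higher in BM, with median log2 differences of 5.77, 5.11 and 3.50. Of 13 B lineage markers 12 were higher and 1 lower, and of 13 macrophage markers 10 were higher and 2 lower. Fibroblast and endothelial markers were each lower in 8 of 9 and higher in 1, with medians of -2.72 and -1.28. The summed neutrophil signal was 58759.6 to 81548 in BM. It was 975 to 2870.37 on 8 EPI arrays and 11648 on replicate 1 of EPI at 6 months. The part of these other cells in the differences between BM and EPI was not tested. Replicate 1 of BM at 6 months also stood apart, with 12 of the 77 members more than 1 log2 unit from the mean of the other arrays of its group, against 0 to 2 on every other array.

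Promoter sequences are shown first, because these genes are scattered over the genome and have been linked in earlier work to shared regulators, among them NRF1, ETS factors of the GABP type and YY1. RefSeq promoter windows, from 250 bases before to 50 after the annotated start on GRCm38.p6, were matched to 68 of the 77 members by Entrez gene ID, giving 74 windows. Motif letters were searched on both strands. The ETS letters CCGGAAG were in 25 member windows (33.8%) against 8.86% of all 32851 windows. The YY1 letters AAGATGGC were in 12 (16.2% against 2.75%), and the NRF1 core CGCATGCG was in 7 (9.46% against 1.87%). The E-box CACGTG was in 7 (9.46% against 7.15%), CCAAT in 29 (39.2% against 37.4%) and TATAAA in 5 (6.76% against 13.6%). At least 1 of the ETS, YY1, NRF1 and E-box letters was found for 39 of the 68 members with windows. The share of all windows holding at least 1 of these was not counted, so the 39 cannot be set against a background. Counted by gene, the E-box was found for 5 of the 68 members (7.35%), close to its 7.15% of all windows, because overlapping Mrpl2 windows each held it. A match describes letters in a window and no binding was measured.

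The 4 windows below run from 120 bases before to 30 after the start and belong to the member with the largest difference between cell types, the member with the largest opposite difference, a member that fell in BM and a member that rose in EPI. Capitals mark ETS and YY1 letters.
Mrps6, chr16:92058216-92058365, + strand: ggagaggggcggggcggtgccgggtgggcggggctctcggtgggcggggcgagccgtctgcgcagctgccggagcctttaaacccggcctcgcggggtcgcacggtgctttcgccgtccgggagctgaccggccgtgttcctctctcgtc
Mrpl33, chr5:31613831-31613980, + strand: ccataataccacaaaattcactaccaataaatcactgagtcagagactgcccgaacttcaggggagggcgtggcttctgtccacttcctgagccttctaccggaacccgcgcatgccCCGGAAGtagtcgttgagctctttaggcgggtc
Mrps18a, chr17:46110884-46111033, + strand: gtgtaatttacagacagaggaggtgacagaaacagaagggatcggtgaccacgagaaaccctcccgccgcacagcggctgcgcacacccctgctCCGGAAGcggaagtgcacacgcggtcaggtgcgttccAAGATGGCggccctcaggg
Mrps22, chr9:98601650-98601799, - strand: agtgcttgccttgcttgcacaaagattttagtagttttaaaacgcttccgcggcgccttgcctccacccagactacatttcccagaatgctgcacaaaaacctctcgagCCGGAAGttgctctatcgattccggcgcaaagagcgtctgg
The Mrps6 window held none of the 4 motifs. Mrpl33, Mrps18a and Mrps22 each held ETS letters near the start, and Mrps18a also held YY1 letters just after it, although these members changed in different directions.

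Transcripts of the mitochondrial ribosome were on the whole lower in BM than in EPI adipocytes. With the 3 ages averaged, 52 of the 77 members were lower in BM and 4 were higher at an adjusted p below 0.05 (limma, Benjamini-Hochberg over 23410 probe sets), while 21 did not pass. Among all probe sets tested, 31.2% were lower and 26.9% were higher. The median log2 difference of the members was -0.44, against -0.02 for all probe sets. Both subunits showed the same balance: 30 large subunit genes were lower and 3 higher, with a median of -0.42, and 22 small subunit genes were lower and 1 higher, with a median of -0.57. The differences were mostly small. A change of at least 2-fold was also met by 10 members in the lower direction and by 1 in the higher, against 11.6% and 10.2% of all probe sets. In 19 members all 9 BM arrays lay below all 9 EPI arrays and in 1 member all lay above, against 15.3% and 12.4% of all probe sets. In such bulk RNA, fewer cells of a type and less RNA per cell cannot be told apart.

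**Figure D1:**
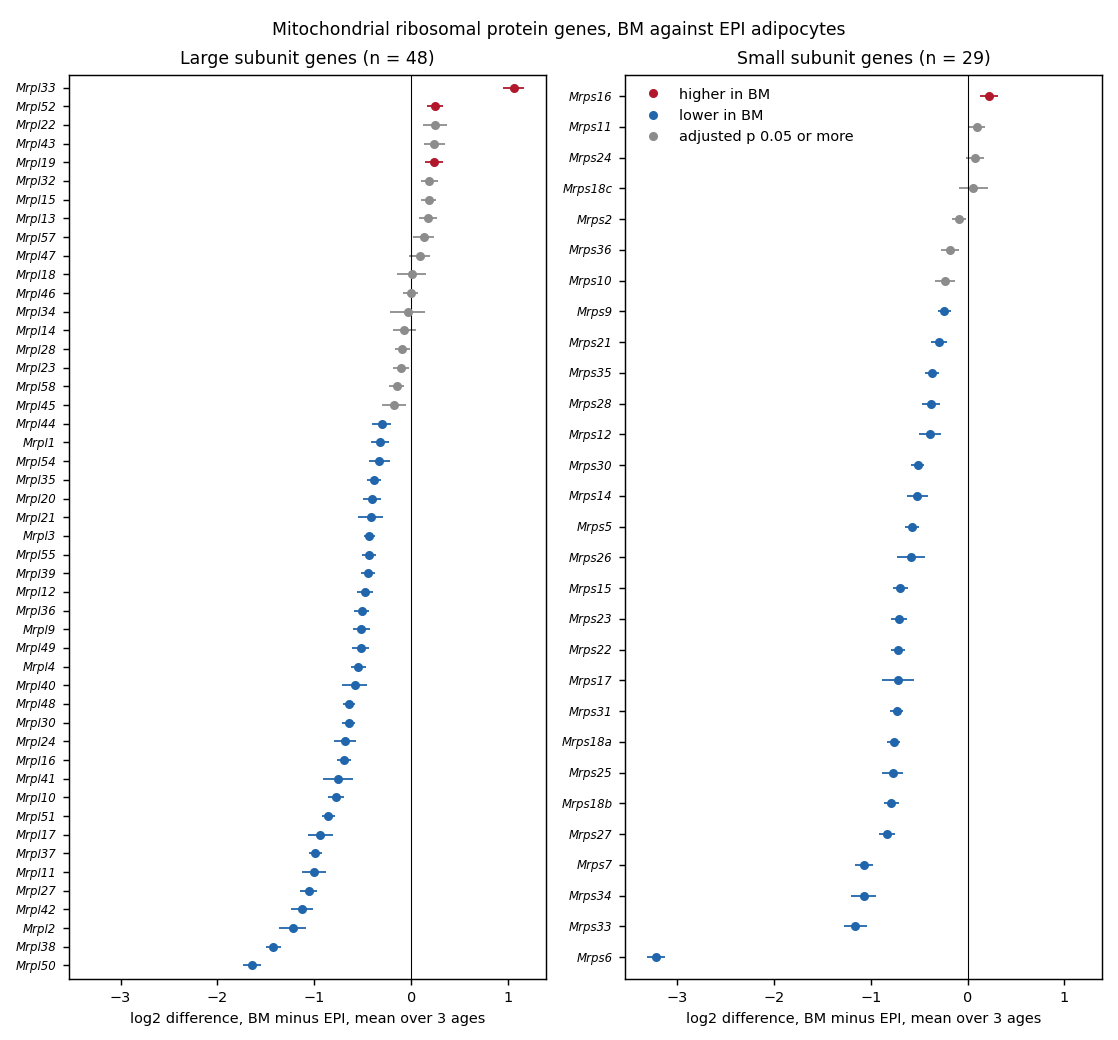
Log2 difference between BM and EPI adipocytes (x axis, BM minus EPI, mean over 3 ages) for the 48 large and 29 small subunit genes (y axis), with standard errors from limma as bars. Most points lie left of 0, with 52 members lower in BM (blue), 4 higher (red) and 21 that did not pass (grey).

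A single small subunit gene gave the largest difference. Mrps6, a protein of the small subunit body, ranged from 7.03 through a median of 7.23 to 7.87 on the 9 BM arrays and from 10.10 through 10.41 to 11.23 on the 9 EPI arrays. The ranges were far apart. The log2 difference was -3.22 ± 0.09 (SE, adjusted p = 2.95e-16, limma), or 9.3-fold, and it was -2.90 at 6 months, -2.78 at 14 months and -3.97 at 18 months. The annotated span of Mrps6 shares 29138 bases with Slc5a3, the sodium-coupled myo-inositol transporter, which was looked at only after the value of Mrps6 was seen. The Slc5a3 probe set ranged from 6.23 to 7.39 in BM and from 9.23 to 11.10 in EPI, with a log2 difference of -3.26 ± 0.13 (SE, adjusted p = 3.45e-14, limma). Which transcript each of these probe sets reports cannot be told apart from these values. Of the 77 members, 24 overlapped another annotated gene, and 19 overlapped a protein-coding gene. Mrps7, Mrps18a, Mrpl18, Mrpl43 and Mrpl57 were among the 19, and the part of their neighbours in their values was not tested.

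The other small subunit genes with the largest separated differences were Mrps33, Mrps34 and Mrps7. Mrps33 ranged from 7.48 through 8.32 to 8.90 in BM and from 9.09 through 9.51 to 9.99 in EPI, a log2 difference of -1.16 ± 0.12 (SE, adjusted p = 7e-08, limma). Mrps34, which was at 6.55, 7.27 and 7.73 (lowest, median, highest) in BM and at 7.91, 8.21 and 8.80 in EPI, differed by -1.07 ± 0.13. Mrps7 was at 7.27, 7.76 and 7.96 in BM and at 8.36, 8.76 and 8.99 in EPI, and also differed by -1.07, with a smaller error of 0.09. All 3 genes were named among calls whose BM and EPI arrays did not overlap.

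Among the large subunit genes, Mrpl50 and Mrpl38 were furthest below EPI. Mrpl50 ranged from 6.90 through 7.37 to 7.93 in BM and from 8.30 through 9.07 to 9.50 in EPI, with a log2 difference of -1.65 ± 0.09 (SE, adjusted p = 5.44e-12, limma), or 3.13-fold. Mrpl38 ranged from 7.51 through 7.86 to 8.08 in BM and from 8.44 through 9.33 to 10.16 in EPI, a log2 difference of -1.42 ± 0.08 (SE, adjusted p = 3.45e-12, limma). The BM arrays of Mrpl38 lay close together, whereas its EPI arrays spread with age as described below.

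Mrpl2, a conserved protein at the heart of the large subunit, differed by -1.22 ± 0.14 on the log2 scale. Its BM arrays ran from 6.61 to 8.45 and its EPI arrays from 8.85 to 9.44, and the lowest BM value came from replicate 1 of the 6 month group. Mrpl27 was at 6.76, 7.03 and 7.56 in BM and at 7.90, 8.16 and 8.51 in EPI, a log2 difference of -1.06 ± 0.09, with -0.62 at its other probe set.

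Mrpl33, a small protein of the large subunit, was the only member with all 9 BM arrays above all 9 EPI arrays. It ranged from 7.14 through 7.80 to 8.37 in BM and from 6.35 through 6.80 to 7.04 in EPI. The log2 difference was 1.06 ± 0.11 (SE, adjusted p = 5.53e-08, limma), or 2.08-fold. It was 1.52 at 6 months and 1.38 at 14 months, and 0.28 at 18 months, where it did not pass (adjusted p = 0.266, limma). The other members called higher in BM were Mrpl52, Mrpl19 and Mrps16, by 0.25, 0.24 and 0.23 on the log2 scale. With the arrays scaled so that the cytosolic ribosomal protein genes had equal signal, Mrpl33 was 0.21 higher and did not pass (adjusted p = 0.113, limma), and no member was called higher.

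**Figure D2:**
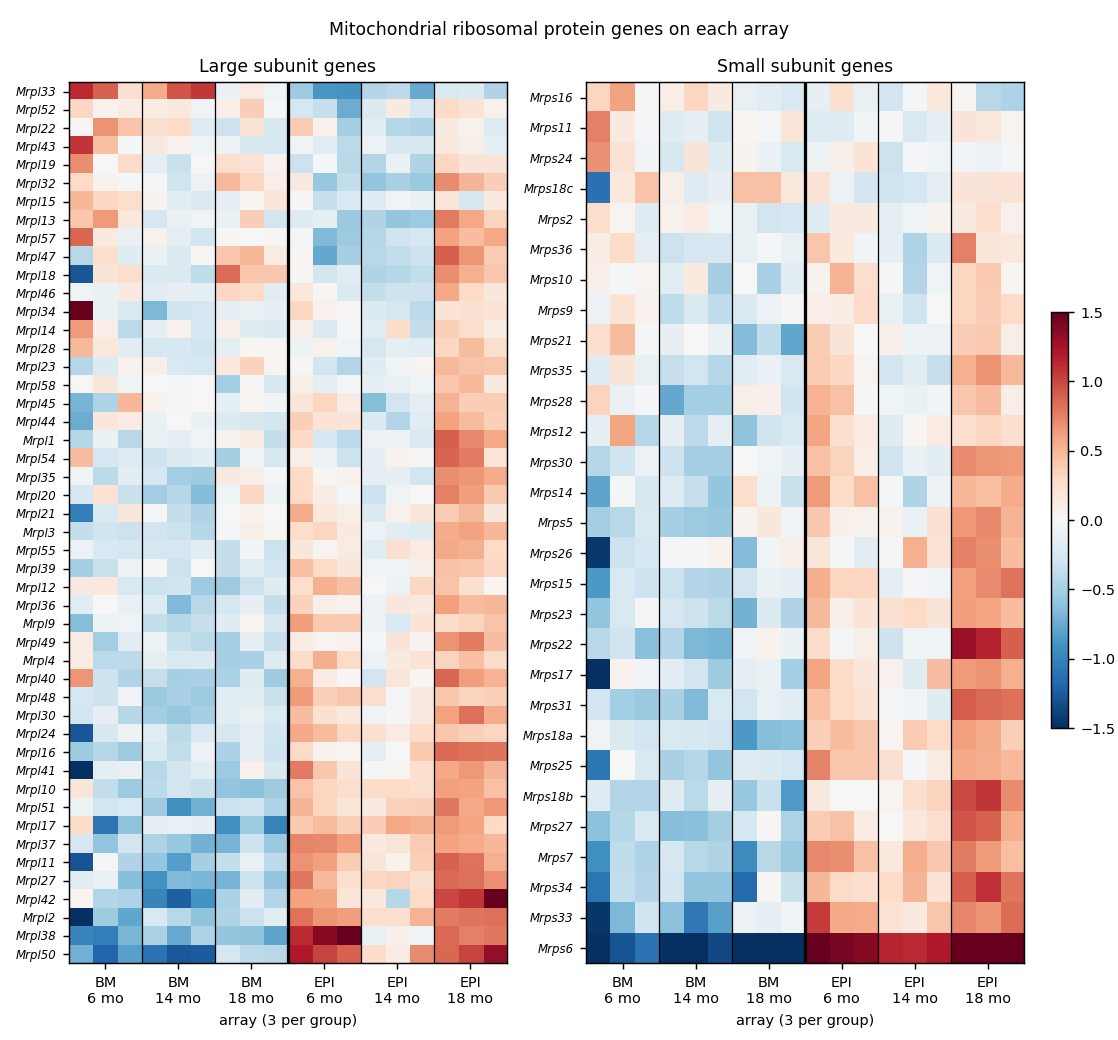
Log2 signal of each of the 77 members (rows, large and small subunit panels) on each of the 18 arrays (columns), centred on the member's mean over all arrays. The EPI arrays of 18 months are above the member mean for most rows, with group means of the member median at 0.52, and the BM arrays are below it, at -0.16, -0.28 and -0.17 at 6, 14 and 18 months.

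Some members have a known second role or a close paralog, and these were described whatever their values. Mrpl12, which also binds the mitochondrial RNA polymerase, was at 6.90, 7.15 and 7.60 in BM and at 7.36, 7.70 and 7.97 in EPI, with a log2 difference of -0.48 ± 0.08 (SE, adjusted p = 6.14e-05, limma). Mrps12, the protein of the decoding centre, differed by -0.39 ± 0.11, and Mrpl44, which has a ribonuclease III fold, by -0.30 ± 0.10. Mrps5, studied in mice for its relation to lifespan, differed by -0.57 ± 0.07, and Mrps30, also known as programmed cell death 9, by -0.52 ± 0.07. Mrpl41, a protein also described in cell death, differed by -0.75 ± 0.16 and by -0.34 at its other probe set. All 6 were called lower in BM, although Mrpl44 did not pass with the arrays centred on their medians (-0.24, adjusted p = 0.067, limma). Mrps36, described also as a part of the 2-oxoglutarate dehydrogenase complex, was at -0.18 ± 0.09 and did not pass (adjusted p = 0.105, limma).

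The Mrps18 paralogs were given side by side. Despite its symbol, the protein of Mrps18a sits in the large subunit, as does that of Mrps30. Mrps18a was at 6.85, 7.42 and 7.66 in BM and at 7.74, 8.09 and 8.32 in EPI, so the arrays did not overlap, and differed by -0.76 ± 0.07 (SE, adjusted p = 4.43e-09, limma). Mrps18b was also separated, at 8.13, 8.57 and 8.85 in BM and 8.97, 9.22 and 10.05 in EPI, and differed by -0.79 ± 0.08. Mrps18c overlapped, at 8.31, 9.59 and 9.87 in BM and at 9.13, 9.35 and 9.64 in EPI, and differed by 0.06 ± 0.15 (adjusted p = 0.759, limma). Its lowest BM value was again replicate 1 of 6 months, and without that array Mrps18c was higher in BM by 0.22 and passed (adjusted p = 0.0209, limma). Differences between the paralogs were not tested.

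**Figure D3:**
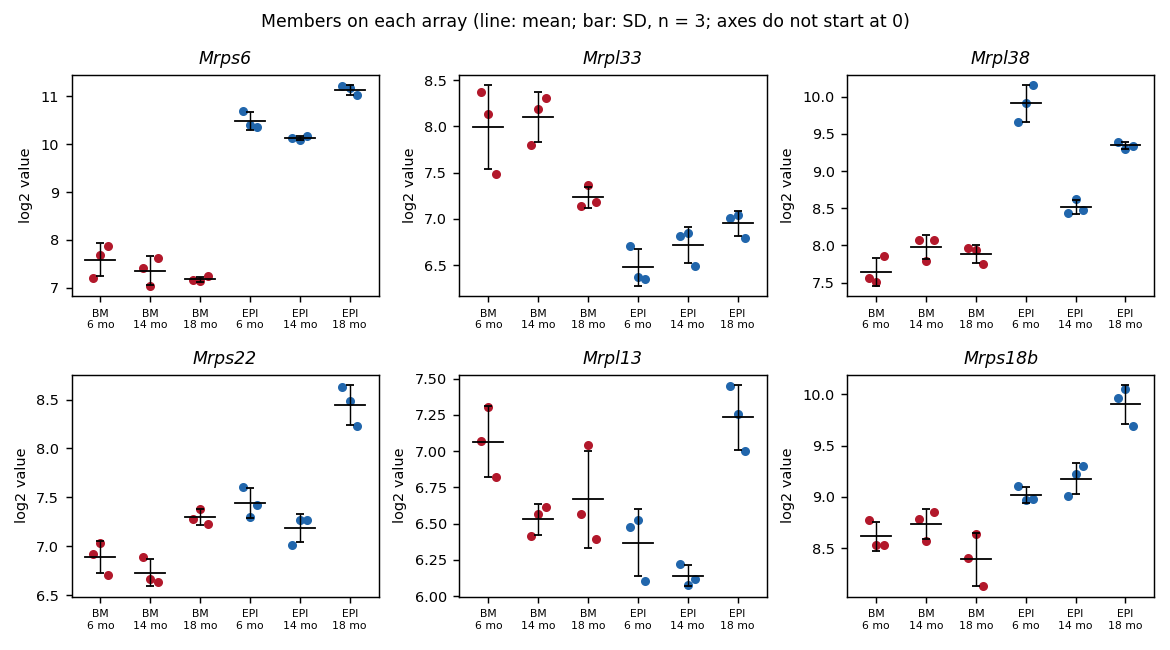
Log2 signal of chosen members on each array (points) with the group mean (line) and SD (bar, n = 3) by age in months, for BM (red) and EPI (blue); the axes do not start at 0. Mrps6 keeps BM at 7.87 or less and EPI at 10.10 or more at every age, Mrpl33 has every BM array above every EPI array, with the gap smallest at 18 months, and Mrps22 in EPI goes from 7.61, 7.30 and 7.42 at 6 months to 8.63, 8.49 and 8.23 at 18 months.

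The difference between BM and EPI was counted within each age. At 6 months 39 members were lower in BM and 8 were higher (median log2 difference -0.40), against 24.3% and 22% of all probe sets. At 14 months 28 were lower and 2 were higher (median -0.29), against 24.2% and 21.6%. At 18 months 57 were lower and 0 were higher (median -0.65), against 25.5% and 21.6%, and 33 of the 57 were large subunit genes and 24 small. The median of all probe sets stayed between -0.04 and -0.00 at each age. At 18 months, 21 members were lower by at least 2-fold and 0 were higher, against 12.9% and 10.9% of all probe sets. With the arrays centred on their medians the counts at 14 months were 19 lower and 4 higher, and with cytosolic ribosomal protein genes set equal they were 69 lower and 1 higher at both 6 and 14 months, a scaling under which 81.5% and 73% of all probe sets were lower.

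In EPI adipocytes the members were lowest at 14 months and highest at 18 months. The median of the members, each centred on its own mean over all arrays, was 0.35, 0.20 and 0.12 on the 3 arrays of 6 months, -0.09, -0.05 and 0.03 on those of 14 months and 0.60, 0.54 and 0.41 on those of 18 months. The 3 ages did not overlap. In BM the same measure lay between -0.30 and -0.10 on all 9 arrays, below every EPI array of 6 and 18 months, and the array of EPI at 14 months with the lowest value lay above the highest BM array by a small margin.

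**Figure D4:**
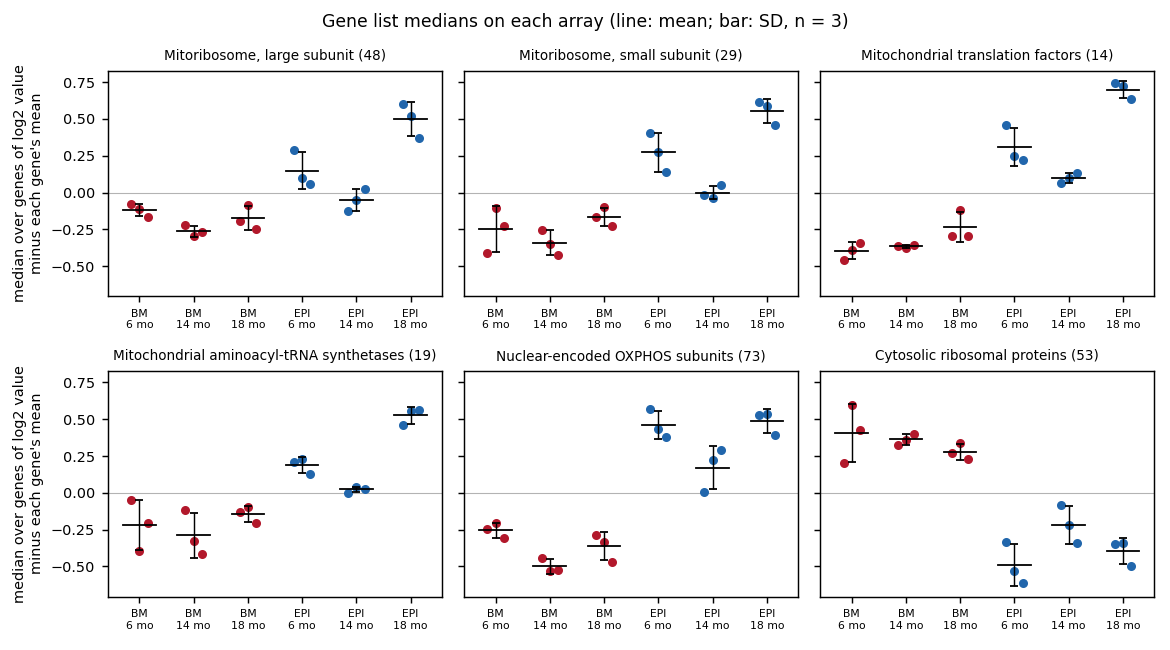
Median log2 signal of each gene list (panels) on each array (points), centred on each gene's mean over all arrays, with the group mean (line) and SD (bar, n = 3). Large subunit genes lie between -0.30 and -0.08 on BM arrays and between -0.12 and 0.60 on EPI arrays, and cytosolic ribosomal proteins lie above 0 on every BM array and below 0 on every EPI array.

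From 6 to 18 months 22 of the 77 members rose in EPI and 1 fell, 15 of the 22 in the large and 7 in the small subunit, with a median log2 change of 0.28. Among all probe sets 8.22% rose and 8.01% fell. Mrps22, a small subunit protein whose human gene is mutated in respiratory chain deficiency, was at 7.61, 7.30 and 7.42 at 6 months and at 8.63, 8.49 and 8.23 at 18 months. The log2 change was 1.00 ± 0.13 (SE, adjusted p = 3.62e-05, limma), or 2.01-fold. Mrps22 was named among rises whose arrays did not overlap. Mrps18b went from 9.11, 8.97 and 8.98 to 9.97, 10.05 and 9.69, a rise of 0.88 ± 0.14, and Mrpl57 from 7.31, 6.68 and 6.80 to 7.94, 7.80 and 7.90, a rise of 0.95 ± 0.19. Mrpl47 rose by 1.06 ± 0.19 at the probe set used (adjusted p = 0.000853, limma), whereas its other probe set was at -0.06 (adjusted p = 0.872, limma). Mrps6 rose by 0.66 (adjusted p = 0.00894, limma), and its overlapping neighbour Slc5a3 rose by 0.75 (adjusted p = 0.0312, limma).

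From 6 to 14 months 12 members fell in EPI and 0 rose, with a median log2 change of -0.25 and 64 of 77 below 0. Among all probe sets 7.51% fell and 10.2% rose. Mrpl38 fell furthest, from 9.66, 9.91 and 10.16 to 8.44, 8.62 and 8.48, a log2 change of -1.40 ± 0.13 (SE, adjusted p = 4.08e-07, limma), or 2.64-fold. It was also the only member to fall from 6 to 18 months, by -0.57 on the log2 scale (adjusted p = 0.00679, limma), since it regained 0.83 between 14 and 18 months. Mrpl50 was at -0.66, Mrps14 at -0.63 and Mrpl44 at -0.52 from 6 to 14 months, and each passed. They were named among calls whose arrays did not overlap. The call of Mrpl44 was lost under 18 of 29 alternatives, with adjusted p-values from 0.00072 to 0.165 (limma). Without replicate 1 of EPI at 6 months, the array with neutrophil transcripts, the count was 6, and without replicate 1 or replicate 2 of EPI at 14 months it was 7 and 6.

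From 14 to 18 months 41 members rose in EPI and 0 fell, 29 of 48 in the large subunit and 12 of 29 in the small, with a median log2 change of 0.49 and 76 of 77 above 0. Among all probe sets 11.7% rose and 12.5% fell. In 63 members the 3 arrays of 18 months all lay above the 3 of 14 months, against 23.1% of all probe sets. Mrps22 rose by 1.26 (adjusted p = 8.18e-07, limma), or 2.4-fold, from 7.02, 7.27 and 7.27. Mrpl42 went from 6.19, 5.60 and 6.33 to 7.04, 7.11 and 7.60, a rise of 1.21 ± 0.20. Mrpl13 went from 6.22, 6.08 and 6.12 to 7.45, 7.25 and 7.00, a rise of 1.09 ± 0.17, and Mrpl32 from 6.28, 6.39 and 6.32 to 7.59, 7.38 and 7.24, a rise of 1.07 ± 0.16. These 4 genes were named as the largest rises among calls whose arrays did not overlap.

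**Figure D5:**
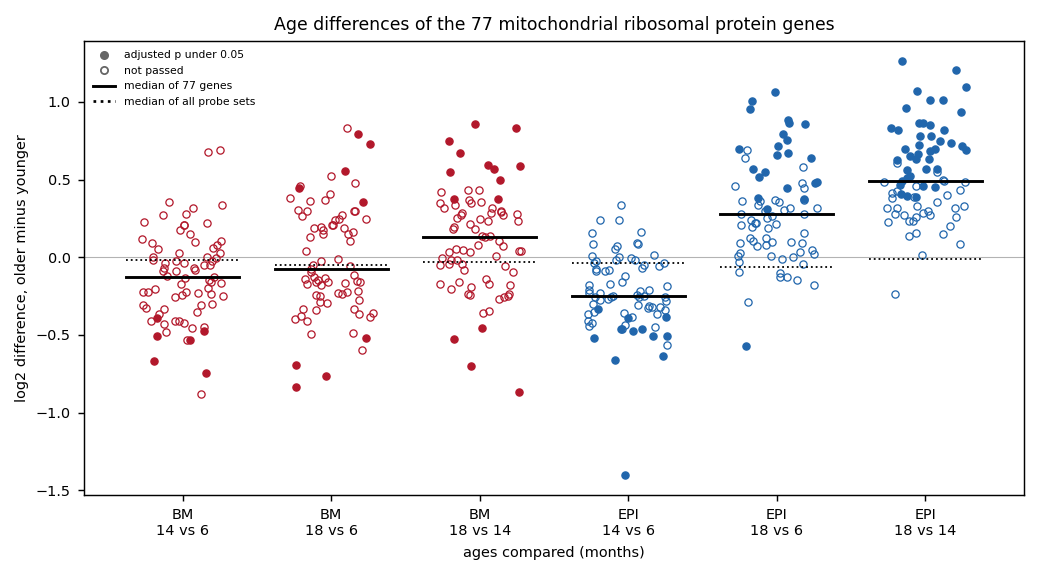
Log2 change with age of the 77 members in BM and EPI (points, filled where the adjusted p was under 0.05) for each pair of ages, with the median of the members as a solid line and that of all probe sets as a dotted line. The EPI medians are -0.25 from 6 to 14 months, 0.28 from 6 to 18 months and 0.49 from 14 to 18 months, and the BM medians are -0.13, -0.07 and 0.13.

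Markers of the other cells of fat tissue moved across the EPI ages too. The summed linear signal of the 13 macrophage markers was 2707 to 2967 at 6 months, 9807 to 13426 at 14 months and 1222 to 1262 at 18 months. That of fibroblast markers was 10827 to 11433.5, then 22259 to 27117, then 12571 to 13564, and that of endothelial markers 2593 to 2875, then 5069.9 to 5925, then 1355 to 1406. Adipocyte markers summed to 93668 to 94466, 75604.5 to 85555 and 97725 to 103423. From 14 to 18 months 11 of 13 macrophage, 7 of 9 fibroblast and 9 of 9 endothelial markers fell, while 7 of 16 neutrophil markers rose (median 1.16). The arrays of 14 months thus held most signal of the macrophage, fibroblast and endothelial markers and least of the members. The summed neutrophil signal was 975 to 11648 at 6 months, 1068 to 1175 at 14 months and 1884 to 2870 at 18 months. The part of the cell mixture in the members' changes with age was not tested.

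In BM, markers of adipocytes and of other cells moved over the age steps. Among all probe sets 5.08% rose and 3.58% fell from 6 to 14 months. These shares were 3.37% and 5.13% from 6 to 18 months and 4.75% and 8.23% from 14 to 18 months. From 6 to 14 months 7 of 28 proliferation, 6 of 9 endothelial and 3 of 9 fibroblast markers fell. Over that step 9 of 13 B lineage and 5 of 13 macrophage markers rose. From 6 to 18 months 6 of 9 endothelial markers fell, and of 15 adipocyte markers 5 fell and 1 rose. From 14 to 18 months 14 of 28 proliferation and 4 of 10 erythroid markers rose and 12 of 13 B lineage markers fell. Of 15 adipocyte markers 5 fell and 2 rose over that step. The part of these cells in the members' changes was not tested.

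Members that passed at each age step in BM are given beside the shares of all probe sets. From 6 to 14 months 6 members fell and 0 rose (median log2 change -0.13), against 3.58% and 5.08% of all probe sets. Mrpl42 went from 6.07, 5.59 and 5.57 to 5.04, 4.81 and 5.14, a fall of -0.75 (adjusted p = 0.0231, limma), and Mrps28 from 6.97, 6.53 and 6.62 to 5.87, 6.13 and 6.12, a fall of -0.67 (adjusted p = 0.0127, limma). Mrpl51 was at -0.53, with -0.45 at its other probe set (adjusted p = 0.209, limma), and Mrps11 was at -0.51. These 4 were named as the largest falls among calls whose arrays did not overlap. Without replicate 1 of 6 months Mrpl51 still passed, although its call was lost under 5 of 29 alternatives. Mrpl42 (-0.59, adjusted p = 0.0898, limma), Mrps28 (-0.54, adjusted p = 0.0524, limma) and Mrps11 (-0.27, adjusted p = 0.158, limma) did not pass without that array. When only the groups compared were fitted, 0 members passed at this age step, and 0 from 6 to 18 months.

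From 6 to 18 months 5 members rose in BM and 4 fell (median -0.07), against 3.37% and 5.13% of all probe sets. Mrps21 went from 9.30, 9.52 and 9.02 to 8.40, 8.67 and 8.26, a log2 change of -0.83 ± 0.14 (SE, adjusted p = 0.00223, limma), and Mrps18a from 7.66, 7.49 and 7.42 to 6.85, 7.07 and 7.09, a change of -0.52 ± 0.11 (adjusted p = 0.00997, limma). Mrpl33 fell by 0.76 (adjusted p = 0.0186, limma) and Mrpl43 by 0.69 (adjusted p = 0.0283, limma). The 4 largest rises were those of Mrpl2 (0.80), Mrps33 (0.73), Mrpl50 (0.55) and Mrps5 (0.45), the last with -0.02 at its other probe set. Without replicate 1 of BM at 6 months Mrpl2 was at 0.35 (adjusted p = 0.133, limma) and Mrps33 at 0.40 (adjusted p = 0.153, limma). Without it Mrpl33 was at -0.57 (adjusted p = 0.0751, limma) and Mrpl43 at -0.41 (adjusted p = 0.107, limma), so both falls lost their call, while Mrps21 (-0.82) and Mrps18a (-0.45) still passed. In all, 1 member rose and 4 fell without this array. With cytosolic ribosomal protein genes set equal, 4 rose and 1 fell.

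From 14 to 18 months 11 members rose in BM and 4 fell (median 0.13), against 4.75% and 8.23% of all probe sets. The largest rises were those of Mrpl50 (0.86, adjusted p = 0.00137, limma), Mrpl18 (0.83), Mrps33 (0.75) and Mrpl42 (0.67). Mrpl33 was at -0.87 (adjusted p = 0.00455, limma), Mrpl17 at -0.70, Mrps21 at -0.52 and Mrps18a at -0.45. The calls of Mrpl18 and Mrpl17 were lost under 19 and 20 of 29 alternatives, with adjusted p-values up to 0.182 and 0.3 (limma). With the deposited values and all arrays fitted, Mrpl33, Mrps21 and Mrps18a thus passed as lower at 18 months than at either earlier age. With cytosolic ribosomal protein genes set equal, Mrpl33 and Mrps18a did not pass from 6 to 18 months (adjusted p = 0.0951 and 0.302, limma). From 14 to 18 months 10 rose and 1 fell under that scaling, and Mrps21 and Mrps18a did not pass (adjusted p = 0.156 and 0.412, limma). Without replicate 2 of BM at 18 months 4 rose, and without replicate 3 of BM at 14 months 5 rose.

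Whether the change with age differed between the cell types was tested as an interaction, BM change minus EPI change. From 6 to 14 months 1 member passed in the positive direction and 0 in the negative, against 5.07% and 6.53% of all probe sets. That member was Mrpl38, at 1.74 ± 0.19 (SE, adjusted p = 4.87e-06, limma), whose signal in BM went from 7.56, 7.51 and 7.86 to 8.07, 7.78 and 8.08 while it fell in EPI. From 6 to 18 months 11 members passed in the negative direction and 1 in the positive (median -0.32, with 61 of 77 below 0), against 5.02% and 3.49% of all probe sets. Mrpl13 had the largest, -1.26 ± 0.24 (SE, adjusted p = 0.00301, limma): BM was above EPI by 0.70 at 6 months and below it by -0.57 at 18 months. Mrpl57 was at -1.24 (adjusted p = 0.00786, limma), and Mrpl33 at -1.24 ± 0.27 (adjusted p = 0.00775, limma).

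The remaining members that passed at 18 months in the negative direction were Mrps18b (-1.11 ± 0.20), Mrps6 (-1.07), Mrpl54 (-0.99), Mrpl43 (-0.93), Mrps21 (-0.93), Mrpl49 (-0.70), Mrpl58 (-0.66) and Mrps18a (-0.62). Mrpl58 is a peptidyl-tRNA hydrolase that became a ribosomal protein. Mrpl38 was the member in the positive direction, at 0.81 (adjusted p = 0.0123, limma). Without replicate 1 of EPI at 6 months 18 members passed in the negative direction. The BM values of Mrpl57 and Mrpl43 at 6 months included a high replicate 1, at 8.20 against 7.49 and 7.24 and at 8.03 against 7.40 and 6.93.

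Transcripts for most proteins that work with the mitochondrial ribosome were lower in BM as well, and those for the cytosolic ribosome were higher. Beside the counts that follow, 31.2% of all probe sets were lower and 26.9% higher. With the ages averaged, 48 of 53 cytosolic ribosomal protein genes measured were higher in BM and 0 were lower, with a median log2 difference of 0.73 and with Rpl12 at 1.61 and Rps28 at 1.48. The median of the 77 members minus that of the cytosolic ribosomal proteins was -0.57, -0.64 and -0.45 in BM at 6, 14 and 18 months and 0.71, 0.18 and 0.91 in EPI. With the cytosolic genes set equal between arrays, the median of all probe sets moved to -0.87 and that of the members to -1.29. This scaling adds the same amount to every probe set of an array, so it leaves the members' place among all probe sets as it was.

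Of 14 mitochondrial translation factors 13 were lower in BM and 0 higher, with a median of -0.73, among them the ribosome recycling factor Mrrf (-1.35) and the initiation factor Mtif2 (-1.08). Of 19 mitochondrial aminoacyl-tRNA synthetase and amidotransferase genes 14 were lower and 1 higher (median -0.48), with Gatb at -1.89, Iars2 at -1.27 and Mars2 at 0.28. Of 30 assembly and rRNA-modifying factors 20 were lower and 4 higher (median -0.35), with Mpv17l2 at -1.73 and Mtg1 at -1.64 against Rbfa at 0.91 and Trmt2b at 0.61. The ribosomal subunits with other symbols gave 2 of 4 lower and 0 higher, Ptcd3 by -0.42 and Dap3 by -0.32.

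Of 18 genes for the upkeep and transcription of mitochondrial DNA 11 were lower and 1 higher (median -0.36), with the transcription factor Tfb2m at -1.66 and Hsd17b10 at -1.40, while Trmt10c was at 0.29. Of 73 nuclear genes of oxidative phosphorylation subunits 57 were lower and 1 higher (median -0.71), with Ndufc1 and Ndufab1 both at -1.86 and Atp5g1 at 0.72. Of 21 import genes 17 were lower and 2 higher (median -0.49), with the chaperone Hspa9 at -1.82 and Timm17a at -1.78 against Timm17b at 0.76 and Tomm22 at 0.73. Regulators of these genes were divided, with 6 of 11 higher and 4 lower. Gabpb1, a subunit of the ETS factor GABP, was higher in BM by 1.79 ± 0.10 and Nrf1 by 1.41 ± 0.11, whereas the coactivator Ppargc1a was at -0.82 ± 0.08 and Myc at -0.64.

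In EPI from 14 to 18 months the companions rose as the members did: 11 of 14 translation factors (median 0.54), 13 of 19 synthetases (0.60), 13 of 30 assembly factors (0.37), 13 of 18 genes of mitochondrial DNA upkeep (0.60), 13 of 21 import genes (0.51) and 20 of 73 oxidative phosphorylation genes (0.34), with 0 falling in any of these lists. Polg2, the accessory subunit of the mitochondrial DNA polymerase, rose by 1.83. Of the 53 cytosolic ribosomal proteins 0 rose and 6 fell (median -0.18). Over this step 11.7% of all probe sets rose and 12.5% fell. From 6 to 18 months the oxidative phosphorylation genes had a median of -0.00, with 6 rising and 2 falling, while 4 of 14 translation factors (median 0.42), 5 of 19 synthetases (0.22), 8 of 30 assembly factors (0.23) and 4 of 21 import genes (0.25) rose and 0 fell. Of 18 genes of mitochondrial DNA upkeep 4 rose and 1 fell over that step (median 0.36). For comparison, 8.22% of all probe sets rose and 8.01% fell. Of the 11 regulators 1 rose and 3 fell from 6 to 18 months (median -0.10), and 3 rose and 1 fell from 14 to 18 months (median -0.02). Among them Ppargc1a, a coactivator of mitochondrial biogenesis, rose by 1.02 from 6 to 18 months (adjusted p = 4.98e-05, limma) and by 1.08 from 14 to 18 months. Myc was at -1.79 and 1.78 over the same steps.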

How the data were processed

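Pooled RNA was measured on Affymetrix gene arrays (Mouse Gene 1.0 ST), and the authors deposited log2 values. The methods of the paper name gcRMA in Partek 6.3 and quantile normalization, while a legend of its supplement names RMA. The deposited table held 35556 probe sets, with values from 1.90 to 14.64. Array medians ran from 5.33 to 5.65, so they were not equal between arrays. Probe sets were named through the platform annotation. At least 1 gene was named by 23410 of them, and 1621 of these named several. No filter on low values was applied, so all 77 members were tested.

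One linear model of the 6 group means was fitted to all 18 arrays with limma 3.58.1 in R 4.3.3, followed by empirical Bayes moderation and Benjamini-Hochberg adjustment over the 23410 probe sets. Differences are BM minus EPI or older minus younger, and a call is an adjusted p below 0.05. The fit was tested on simulated data. Named members were the largest calls with arrays that did not overlap, the largest interactions and 10 genes fixed by role. Other lists were described by counts and medians. The members and lists were chosen with earlier results of these data known. Promoters and gene spans were from RefSeq on GRCm38.p6. Alternatives were other scalings, variance models, tested sets and fits without each array.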

Additional observations from a re-analysis of the deposited data

Results flagged for a closer look

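The change with age differed between BM and EPI adipocytes in 12 members, by the interaction test in limma (BM change minus EPI change, log2 scale). Mrpl38 had a difference of 1.74 from 6 to 14 months and of 0.81 from 6 to 18 months. The other values were from 6 to 18 months, at -1.26 for Mrpl13, -1.24 for Mrpl33, -1.24 for Mrpl57, -1.11 for Mrps18b, -1.07 for Mrps6, -0.99 for Mrpl54, -0.93 for Mrpl43, -0.93 for Mrps21, -0.70 for Mrpl49, -0.66 for Mrpl58 and -0.62 for Mrps18a. In Mrpl13 and Mrps18b the EPI signal rose and the BM signal did not pass a test with age. In Mrpl33, Mrpl43, Mrps21 and Mrps18a the BM signal fell from 6 to 18 months. Without replicate 1 of BM at 6 months the falls of Mrpl33 and Mrpl43 did not pass (adjusted p = 0.0751 and 0.107, limma). When only the compared groups were fitted, 0 members fell in BM over that step. At 18 months the interaction passed in 5.02% of all probe sets in the negative and 3.49% in the positive direction. At 14 months it was 6.53% and 5.07%.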

How the results depend on the processing

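The members' lower signal in BM and their rise in EPI from 14 to 18 months kept their direction under most alternatives. Under most of these the counts also stayed within 1.5 times the count given. In BM, 0 calls were left from 6 to 14 and from 6 to 18 months when only the compared groups were fitted. From 14 to 18 months BM had 15 higher and 4 lower in that fit, against 11 and 4 in the fit of all arrays. Except where stated, the cause was not tested. A fold of 2 as a further demand left, between BM and EPI, 1 higher and 10 lower over the ages, 1 and 9 at 6 months, 1 and 6 at 14 months, and 21 lower at 18 months. Arrays centred on their medians gave 9 higher over the ages, 4 higher at 14 months, 25 lower in EPI from 6 to 14 months, 6 higher for the interaction at 14 months and a BM median from 6 to 18 months of 0.000555. Setting cytosolic ribosomal protein genes equal, which by construction moves BM down, gave 0 higher over the ages, 1 higher and 69 lower at 6 months and at 14 months, 0 lower in BM from 6 to 14 months, 1 lower from 6 to 18 and 1 from 14 to 18 months with a median from 6 to 18 months of 0.0422, in EPI 38 lower from 6 to 14, 0 lower from 6 to 18 and 70 higher from 14 to 18 months, and for the interactions 9 higher at 14 months and 0 higher and 5 lower at 18 months. With this scaling 17.6% of all probe sets fell in EPI from 6 to 14 months (median -0.32). From 14 to 18 months 6179 of all 23410 rose in EPI (median 0.33). Under the same scaling members near 0 reversed over the ages, Mrps11 to -0.75, Mrpl43 to -0.61, Mrpl18 to -0.84, Mrpl47 to -0.76, Mrpl57 to -0.72, Mrpl13 to -0.67, Mrpl32 to -0.66 and Mrps18c to -0.79. Quantile normalization repeated gave 10 lower in BM and 19 lower in EPI from 6 to 14 months, with 2 higher and 1 lower for that interaction. Ordinary analysis of variance gave 2 higher over the ages, 1 higher at 14 months, 3 lower in BM from 6 to 14 months, 2 higher and 2 lower from 6 to 18 months, and 2 higher for the interaction at 14 months. Array weights gave 4 higher at 14 months, 0 lower in BM from 6 to 14 and 0 higher and 2 lower from 6 to 18 months, in EPI 1 higher and 21 lower from 6 to 14, 40 higher from 6 to 18 and 62 higher from 14 to 18 months, and a median of -0.0138 for the interaction at 14 months. Fitting only the compared groups gave 4 higher at 6 months, 5 at 14 and 1 at 18 months, 0 lower in BM from 6 to 14 months and 0 higher and 0 lower from 6 to 18 months, and 7 lower for the interaction at 18 months. Testing all probe sets gave 1 higher at 14 months, 3 lower in BM from 6 to 14 and 2 higher from 6 to 18 months. Testing only probe sets above the median level gave 3 higher for the interaction at 14 months, and the mean of a gene's probe sets gave 2.

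Leaving out each array in turn gave, between BM and EPI, 2 to 6 higher and 52 to 54 lower over the ages, 7 to 11 and 34 to 41 at 6 months, 1 to 3 and 23 to 37 at 14 months and 0 and 48 to 60 at 18 months. In BM it gave 0 to 4 higher and 2 to 13 lower from 6 to 14 months, 0 to 10 and 1 to 10 from 6 to 18 months and 4 to 14 and 1 to 4 from 14 to 18 months. In EPI it gave 0 higher and 6 to 18 lower, 14 to 32 higher and 0 to 1 lower, and 29 to 52 higher and 0 lower over the same steps. The interactions ranged from 1 to 4 higher and 0 to 2 lower at 14 months and from 1 to 2 and 6 to 18 at 18 months. The median of the interaction at 14 months ranged from -0.0130 without replicate 1 of EPI at 6 months to 0.109 without replicate 3 of that group. The lowest EPI count from 6 to 18 months, 14, came without replicate 3 of 6 months or replicates 1 or 2 of 18 months. In BM, 13 fell from 6 to 14 months and 10 rose and 10 fell from 6 to 18 months without replicate 3 of 6 months. Same-numbered BM and EPI arrays deviated together with correlations of -0.14 to 0.15, so the numbers are not taken to pair the samples, although BM and EPI cells shared their mice. With the replicate number as a block within each age, 5 members were higher and 52 lower over the ages, 9 and 36 at 6 months, 3 and 28 at 14 months and 0 and 56 at 18 months, with 1 higher and 0 lower for the interaction at 14 months and 1 and 9 at 18 months. With it as a block over the ages, EPI gave 11 lower, 23 higher and 41 higher over the 3 age steps, and BM 7 lower, 4 higher and 4 lower, and 10 higher and 3 lower.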
